A study of Mus musculus with 13 samples.

Results

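Epithelial-mesenchymal transition (EMT) is the programme by which epithelial cells loosen their junctions and take on a migratory, matrix-producing state. Its transcription factors, its best known readouts and a classic transforming growth factor-β (TGF-β) target are described here as a set of 9 mouse genes: Snai1, Snai2, Zeb1, Zeb2, Twist1, Tgfbi, Vim, Cdh1 and Cdh2. Their peaks were taken from chromatin immunoprecipitation sequencing (ChIP-seq) of LβT2, a cell line from mouse pituitary that resembles the gonadotrope, the cell that makes gonadotropins. A peak belonged to a gene when the deposited annotation named that gene as nearest and the peak lay within 100 kb of its transcription start. By that rule 71 of the 538751 peaks in 12 libraries belonged to the set, and the farthest lay 38.8 kb from its start. Cdh2 had 37 of them, Zeb1 11, Cdh1 8, Snai2 7, Tgfbi 4 and Twist1 4. Snai1, Zeb2 and Vim had 0. No peak annotated to any of the 9 genes lay outside the limit.

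All 12 libraries came from LβT2 cells stably transduced with a lentivirus that expresses green fluorescent protein constitutively and FLAG-tagged mouse FOXL2 when doxycycline is given. Vehicle and activin groups alike recovered for 24 h, received doxycycline for 48 h and were held for 2 h in 2% serum. The last step was a 1 h exposure, to vehicle in one group and to activin A at 1 nM in the other. Each antibody, against SMAD2/3, the FLAG tag (called FOXL2 below) or acetylated lysine 27 of histone H3 (H3K27ac), was used on 2 samples of each treatment, and a sample pooled 3 plates. The FOXL2 signal is therefore that of an induced, tagged protein in a single line, and cells without doxycycline were not part of these groups. The Protein-A control sample was not analysed here, so the values have no matched background beside them. The labels do not say that the samples of a group came from separate cultures, so a p-value measures only the spread between these samples.

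Activin and TGF-β receptors phosphorylate SMAD2 and SMAD3, which then enter the nucleus with SMAD4 and bind DNA together with partner transcription factors. FOXL2 is such a partner in gonadotropes, where activin signalling raises transcription of Fshb, a hormone subunit gene. In epithelial cells the same SMAD proteins are known to induce the Snail, Zeb and Twist families, repressors and regulators that silence Cdh1 (E-cadherin, the adhesion molecule of epithelia). Loss of Cdh1 is classically accompanied by gain of Cdh2 (N-cadherin) and Vim (vimentin, an intermediate filament). Tgfbi encodes a secreted matrix protein named for its induction by TGF-β. H3K27ac marks active promoters and enhancers.

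The sequence just upstream of the start is shown for 4 of the genes because it is the place where a SMAD site would be sought first, and 3 of the 4 had no peak there. RefSeq's GRCm38.p6 promoter table held 5 of the 9 genes, and each stretch is the 250 bases before the start, read 5′ to 3′ on the gene's strand. Capitals mark each CAGAC, the SMAD box, and each CACCTG, the E-box that Snail and Zeb proteins recognise, on either strand (GTCTG and CAGGTG). The stretches are chr2:167537945-167538194 on the plus strand for Snai1, chr2:45117443-45117692 on the minus strand for Zeb2, chr12:33957421-33957670 on the plus strand for Twist1 and chr13:56609336-56609585 on the plus strand for Tgfbi.
Snai1: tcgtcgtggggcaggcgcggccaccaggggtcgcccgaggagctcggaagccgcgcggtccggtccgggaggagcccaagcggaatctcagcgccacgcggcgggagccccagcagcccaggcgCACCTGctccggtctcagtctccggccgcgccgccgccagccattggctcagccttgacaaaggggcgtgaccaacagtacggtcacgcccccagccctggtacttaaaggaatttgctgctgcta
Zeb2: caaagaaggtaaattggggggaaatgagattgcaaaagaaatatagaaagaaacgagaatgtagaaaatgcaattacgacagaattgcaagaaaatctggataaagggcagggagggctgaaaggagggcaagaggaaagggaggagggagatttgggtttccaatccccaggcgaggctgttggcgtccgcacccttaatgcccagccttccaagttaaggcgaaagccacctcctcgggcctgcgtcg
Twist1: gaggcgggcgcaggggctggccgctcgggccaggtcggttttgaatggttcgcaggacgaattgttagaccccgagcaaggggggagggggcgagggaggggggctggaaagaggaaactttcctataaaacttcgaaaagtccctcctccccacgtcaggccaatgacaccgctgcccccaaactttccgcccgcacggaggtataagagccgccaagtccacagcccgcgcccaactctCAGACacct
Tgfbi: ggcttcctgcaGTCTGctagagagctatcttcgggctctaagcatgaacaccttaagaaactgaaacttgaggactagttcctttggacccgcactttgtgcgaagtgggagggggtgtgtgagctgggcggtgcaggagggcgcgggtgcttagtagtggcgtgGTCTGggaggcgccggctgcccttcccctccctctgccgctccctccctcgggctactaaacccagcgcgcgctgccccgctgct

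Tgfbi held 2 SMAD boxes, Twist1 held 1, and Snai1 held 1 CACCTG E-box. The Zeb2 stretch held none of these, and neither did that of Vim, the other gene in the table. A SMAD box occurred in 42.2% and a CACCTG in 17.2% of the 32851 RefSeq stretches of the same length, so either match is common. The forkhead motif GTAAACA (3.17% of stretches) and the AP-1 motif TGANTCA (6.75%) were in none of the 5. The general E-box CANNTG, of which CACCTG is one form, was in 66.2% of stretches and among the 5 only in that of Snai1. None of the 12 libraries had a peak in the stretches of Snai1, Twist1, Tgfbi or Vim. The far end of the Zeb2 stretch was reached by FOXL2 peaks of both vehicle libraries.

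Within 100 kb of the 9 starts, SMAD2/3 peaks were listed in activin libraries only, and by the annotation rule only at Cdh2. Over the 9 genes the count was 0 and 0 after vehicle and 1 and 1 after activin. The vehicle counts did not overlap the activin counts. The same was true of the whole SMAD2/3 lists, with 605 and 144 peaks in vehicle and 7784 and 5970 in activin. Peaks of the set were 0.0128% and 0.0168% of the activin lists. The difference of 1 peak had p = 0.333 (exact permutation test, two-sided, n = 2 against 2), the smallest p this design can give. FOXL2 counts were 11 and 13 in vehicle and 13 and 11 in activin, which are the same numbers in both treatments (12 ± 1.41 each, SD, n = 2, exact permutation p = 1). H3K27ac counts were 6 and 4 in vehicle (5 ± 1.41, SD, n = 2) and 7 and 4 in activin (5.5 ± 2.12, SD, n = 2), an overlap of the groups with exact permutation p = 1. With every list cut to the length of the shortest of its antibody, the FOXL2 difference was -2, with vehicle higher (exact permutation p = 0.333), and the SMAD2/3 difference was 0. The SMAD2/3 outcome was fixed beforehand, because the cut left 144 peaks and the Cdh2 peaks stood at places 1822 and 2539.

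**Figure D1:**
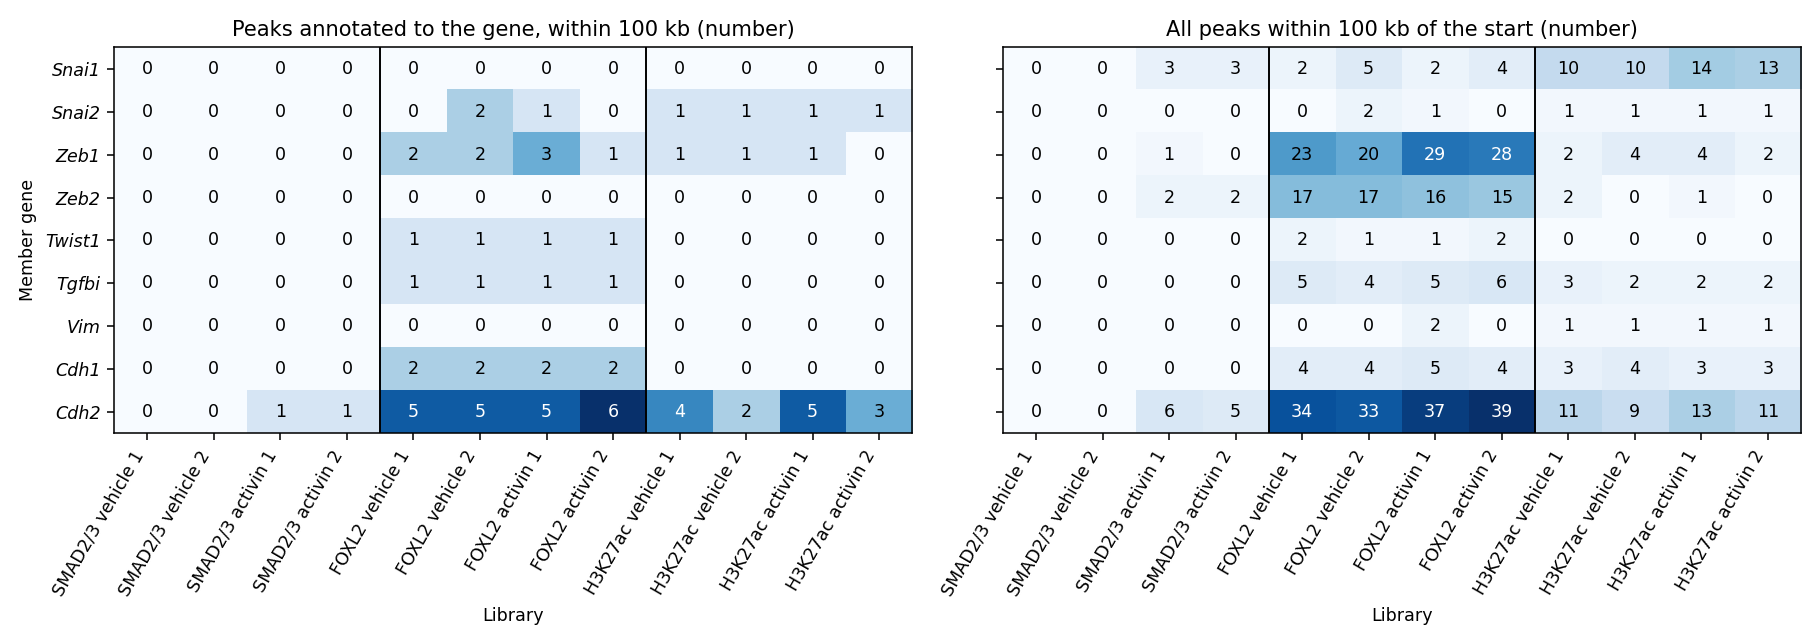
Number of peaks for each of the 9 genes (rows) in each of the 12 libraries (columns), by the annotation rule on the left and for every peak within 100 kb of the start on the right; darker blue is more peaks, on a scale of its own in each panel. SMAD2/3 vehicle columns are 0 throughout, and Cdh2 and Zeb1 carry most FOXL2 peaks.

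The annotation rule gives each peak to a single nearest start, often that of a noncoding RNA, and so leaves out peaks inside or beside a long gene. Every peak within 100 kb of each start was therefore also counted, a choice made after the data had been seen. The 9 windows held 0 and 0 SMAD2/3 peaks in vehicle and 12 and 10 in activin. They held 87 and 86 FOXL2 peaks in vehicle and 98 and 98 in activin, and 33 and 31 H3K27ac peaks in vehicle and 39 and 33 in activin. The higher counts stood beside longer lists for the 2 transcription factors: SMAD2/3 lists ran from 144 peaks (vehicle 2) to 7784 (activin 1), FOXL2 lists from 83834 to 97701 and H3K27ac lists from 38995 to 41763. The reads behind each list are not given in the files, so depth is unknown and its part in these counts was not tested.

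Peaks of the 4 libraries of an antibody that shared at least 1 bp were merged into regions. Activin-only regions are those with a peak in each activin library and none in the vehicle libraries, and vehicle-only regions are the reverse. By the rule, 1 of 1 SMAD2/3 region was activin-only, where 54% of all 8602 SMAD2/3 regions were (with 0.0233% vehicle-only and 1.53% in all 4 libraries). In the windows 8 of 14 SMAD2/3 regions were activin-only (57.1%) and the other 6 had a peak in 1 activin library. The share in the windows was near that of the whole genome. Of the 8, 5 lay around Cdh2, 2 around Snai1 and 1 around Zeb2, while Snai2, Twist1, Tgfbi, Vim and Cdh1 had no SMAD2/3 peak of any library within 100 kb.

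FOXL2 formed 15 regions by the rule, with 8 present in all 4 libraries (53.3%, against 46.8% of all 124781). None was activin-only (8.95% of all) or vehicle-only (3.22% of all). The windows held 124 FOXL2 regions, with 11 activin-only (8.87%) and 2 vehicle-only (1.61%). H3K27ac formed 7 regions by the rule, 4 of them in all 4 libraries (57.1%, against 45.9% of all 53008). None was activin-only (5.84% of all) or vehicle-only (6.79% of all), while in the windows 5 of 47 were activin-only (10.6%) and 1 vehicle-only (2.13%). In the windows the activin-only FOXL2 share was close to that of all regions, while the vehicle-only share was lower (1.61% against 3.22%). The H3K27ac window shares differed more for activin-only (10.6% against 5.84%) and vehicle-only regions (2.13% against 6.79%). These differences were not tested. The 5 activin-only acetylated regions lay around Cdh2 (3), Snai1 (1) and Zeb1 (1).

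**Figure D2:**
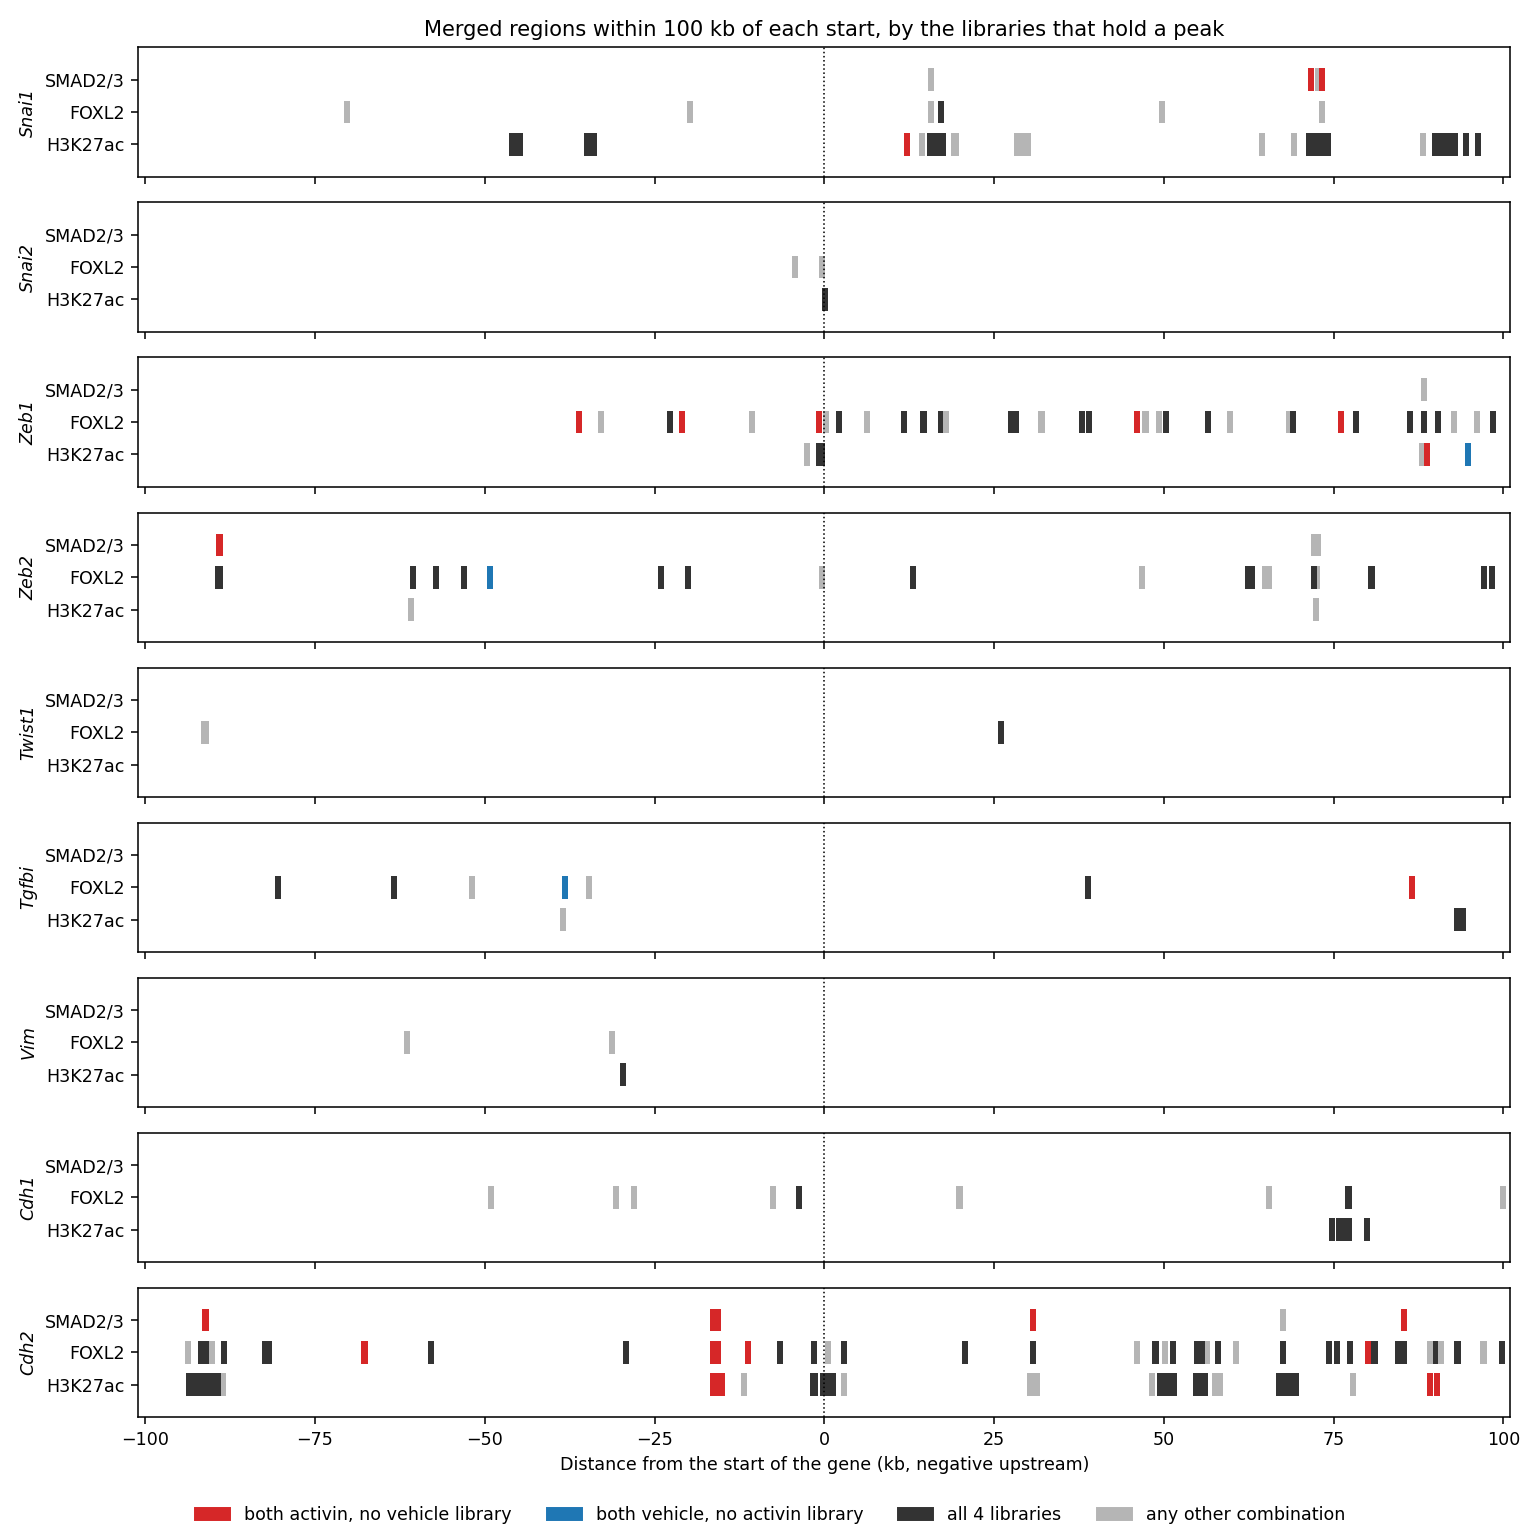
Merged regions of each antibody within 100 kb of the start of each gene (x axis, kb, negative upstream; dotted line, the start; bars under 0.9 kb are drawn 0.9 kb wide), coloured by the libraries that hold a peak. Red bars are regions present in both activin and in no vehicle library. Of the SMAD2/3 rows, those of Snai1, Zeb2 and Cdh2 hold red bars, while red FOXL2 or H3K27ac bars are also seen for other genes such as Zeb1.

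Where a region was present in all 4 libraries, its strength was compared by percentile rank. Regions of this kind were ranked by −log10 q within each library, with 100 the strongest, so that all 4 rankings have the same length. A region is called higher when both activin ranks exceeded both vehicle ranks, lower in the opposite case, and mixed otherwise. By the rule, 0 of 8 FOXL2 regions were higher (26.1% of all 58444) and 1 was lower (33.1% of all). Among H3K27ac regions 2 of 4 were higher (27.9% of all 24356), both at Cdh2, and 0 were lower (30.4% of all). In the windows 17 of 64 FOXL2 regions were higher (26.6%) and 18 lower (28.1%), while 10 of 21 H3K27ac regions were higher (47.6%) and 4 lower (19%). The 10 lay around Snai1 (4), Cdh2 (3), Tgfbi (2) and Cdh1 (1), and the 4 around Cdh2 (3) and Cdh1 (1). Of the 10, only the 2 counted by the rule were annotated to a gene of the set, and the others were annotated to neighbouring genes. No SMAD2/3 region of the set was in all 4 libraries (of the 132 that were, 26.5% were higher and 25% lower). Neighbouring regions are not independent, and none of these counts was tested.

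**Figure D3:**
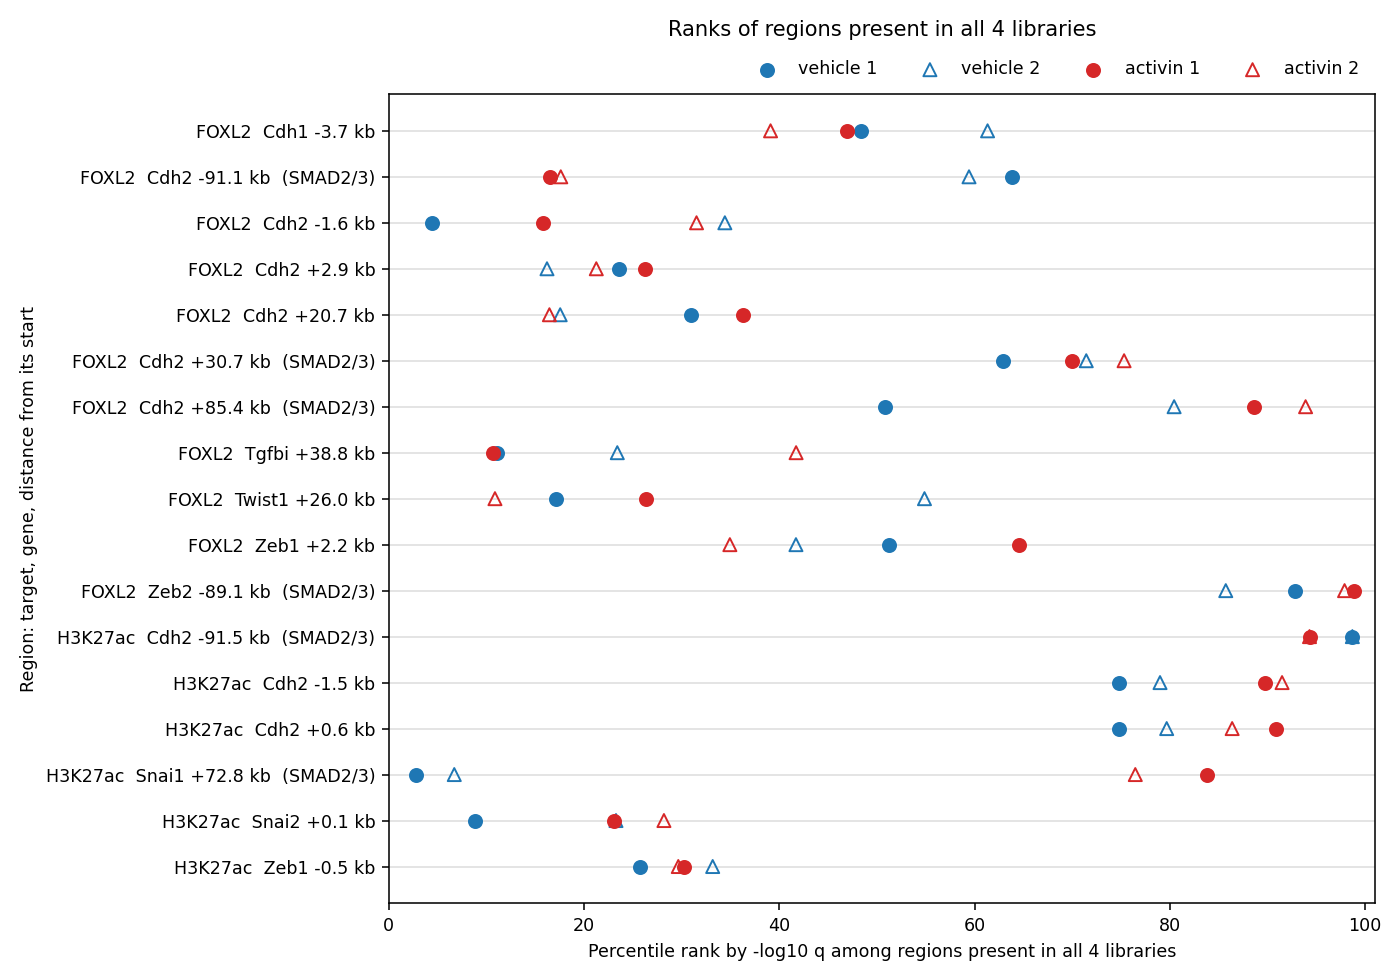
Percentile rank (x axis, 100 strongest) in each of 4 libraries for the regions annotated to a gene of the set and for those overlapping a SMAD2/3 region of both activin libraries (marked SMAD2/3), all present in every library of their antibody. Ranks of vehicle (blue) and activin (red) are apart for H3K27ac at Cdh2 and near Snai1, and intermixed for most FOXL2 regions.

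Snai1 encodes the Snail repressor, usually an early SMAD target in EMT. Its own start carried nothing: the nearest SMAD2/3 peak was 15.6 kb away in activin 1 and 71.5 kb away in activin 2, and the nearest H3K27ac peak was 12.1 kb away in both activin libraries and 15.9 and 15.8 kb away in vehicle. A cluster of SMAD2/3 peaks stood 71.7 to 73.3 kb downstream, inside Ube2v1, a ubiquitin-conjugating enzyme variant gene that RefSeq places at chr2:167607639-167632020. The activin-only region at chr2:167609719-167610114 had the authors' fold enrichment of 6.47 in activin 1 and 5.61 in activin 2, linear ratios whose background the sources do not describe. The activin-only region at chr2:167611403-167611645 had folds of 7.06 and 6.87. A region between them had a peak in activin 2 only (fold 4.73, place 3954 of 5970). By −log10 q the first region stood at place 1948 of 7784 in activin 1 and 2389 of 5970 in activin 2, and the other at 2957 and 2605.

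Acetylation around this cluster differed between the treatments more than at any other region of the set present in all 4 libraries. In vehicle 1 it consisted of 2 short H3K27ac peaks of 483 and 390 bp (folds 2.85 and 2.57), and in vehicle 2 of 1 peak of 601 bp (fold 2.84). In activin 1 a single peak of 3564 bp with fold 6.23 covered it, and in activin 2 one of 3659 bp with fold 5.56. The ranks of the merged region (chr2:167609136-167612794) were 2.75 and 6.70 in vehicle and 83.8 and 76.4 in activin, with no overlap. FOXL2 was present under the downstream SMAD2/3 region in vehicle 2 (fold 5.19), activin 1 (5.15) and activin 2 (10.8), and had no peak there in vehicle 1. The deposited annotation named Gm11475, a pseudogene, as the nearest start for every peak of the cluster. By class, it placed the strongest peak of each region in a promoter or at a transcript end of Ube2v1. Which gene the region acts on was not measured.

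**Figure D4:**
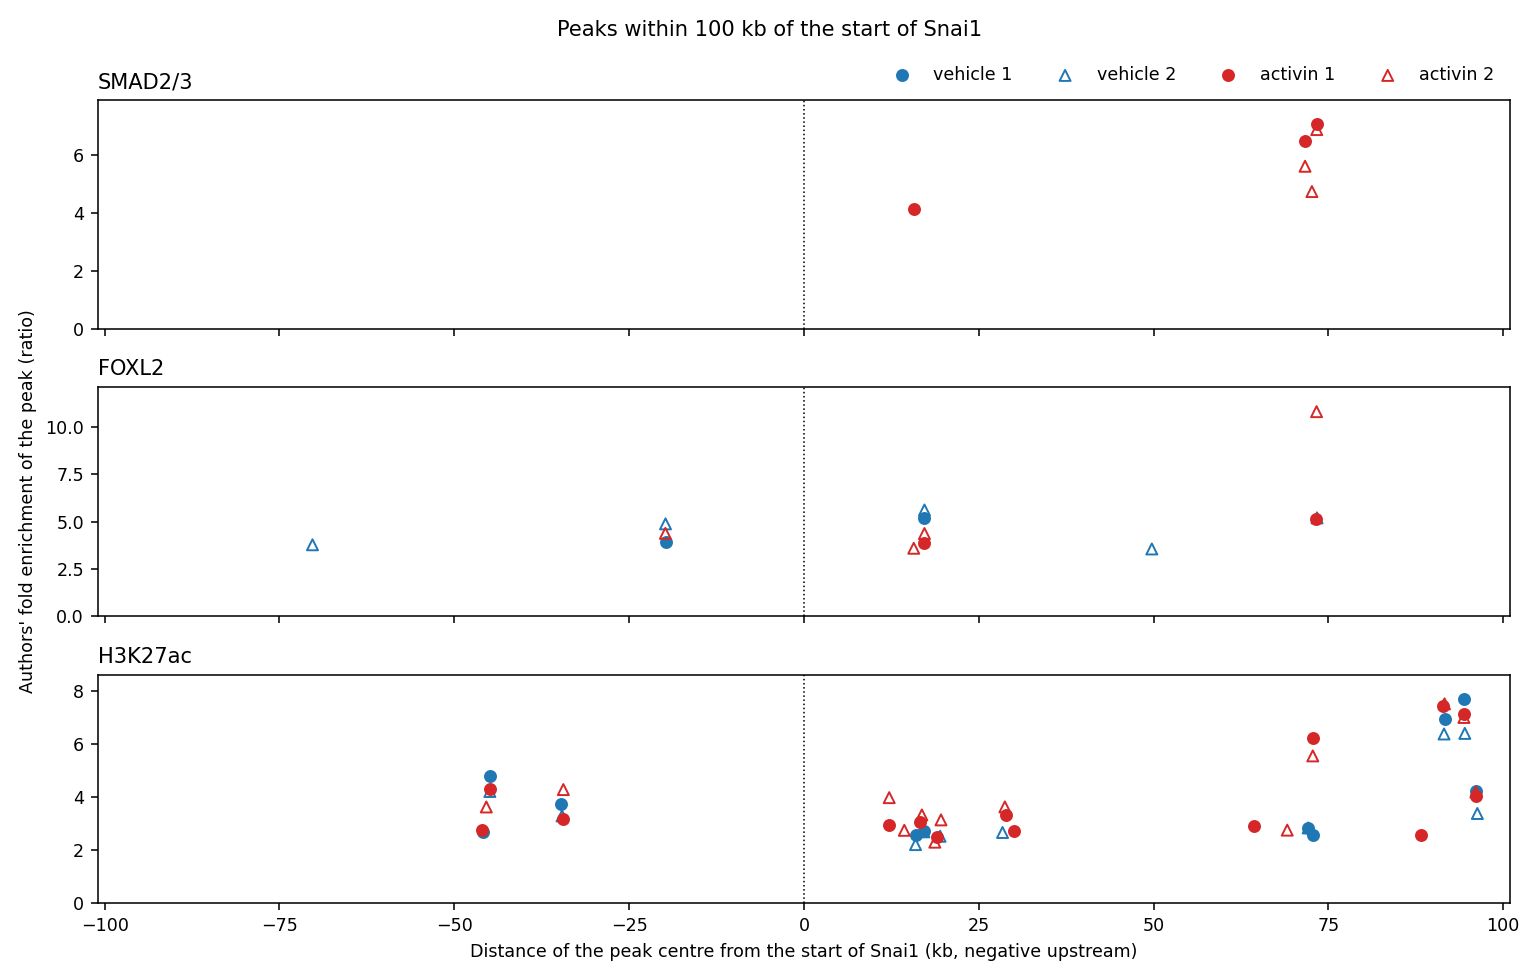
Authors' fold enrichment (y axis, linear ratio) of every peak within 100 kb of the start of Snai1 (x axis, distance of the peak centre, kb) for the 3 antibodies, by library. SMAD2/3 points are all from activin libraries, and near 73 kb the H3K27ac points of activin (6.23 and 5.56) stand above those of vehicle (2.57 to 2.85).

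Elsewhere around Snai1, a SMAD2/3 peak 15.7 kb downstream was present in activin 1 only (fold 4.12). It lay in an H3K27ac region of all 4 libraries (chr2:167553357-167556133) with folds of 2.71 and 2.69 in vehicle and 3.07 and 3.33 in activin. Its ranks of 11.7 and 17.3 in vehicle and 31.0 and 38.2 in activin did not overlap. An H3K27ac region 12.2 kb downstream was activin-only, with folds of 2.94 and 3.98. The acetylated regions of the window with the highest mean percentile in their lists, 91.4 and 94.5 kb downstream at the Ube2v1 start, had folds of 6.38 to 7.70 in all 4 libraries, and only the first was higher in both activin libraries (ranks 96.4 and 96.1 against 97.7 and 98.0). FOXL2 was sparse near Snai1, with 6 regions, of which 1 was in all 4 libraries, 17.2 kb downstream (ranks 28.4 and 45.5 in vehicle, 13.2 and 24.0 in activin, lower).

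Snai2, the gene of the Slug repressor, had an acetylated start, and its nearest SMAD2/3 peak was 218 kb away (activin 1). The H3K27ac region chr16:14705552-14706356 had folds of 2.37 and 2.60 in vehicle and 2.67 and 2.94 in activin. Its ranks, 8.80 and 23.3 in vehicle and 23.1 and 28.2 in activin, overlapped between treatments. FOXL2 was found 4.32 kb upstream in vehicle 2 (fold 2.66) and activin 1 (3.82), and 0.294 kb upstream in vehicle 2 alone (2.36). Each of these 2 FOXL2 regions had a peak in some libraries of one treatment and not in others.

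Zeb1 encodes a zinc finger and homeobox repressor of Cdh1, and around it FOXL2 was denser than around most genes. The window held 34 FOXL2 regions, where the median of 17491 RefSeq protein-coding genes was 9 and 2.79% had as many. Of these 17 were in all 4 libraries, 5 were activin-only and 0 vehicle-only. Among the 17, 10 ranked higher in both activin libraries, 0 lower and 7 mixed, where 26.1% of all FOXL2 regions ranked higher and 33.1% lower. Neighbouring regions share a locus, and these counts were not tested.

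By mean percentile in their lists, the highest FOXL2 regions of the window were those 28.2 kb downstream (folds 12.3 and 12.2 in vehicle, 17.5 and 18.2 in activin) and 78.2 kb downstream (14.5 and 10.7, then 22.2 and 21.1). Both lie in introns of Zeb1 and both were higher in activin, with ranks of 73.7 and 83.6 against 87.6 and 91.5 for the first. A region 39.0 kb downstream was almost level with the second by that measure and had mixed ranks, with folds of 21.7 and 13.1 in vehicle and 19.6 and 14.7 in activin. A gap wider than at these regions, though not the widest of the window, was seen 88.3 kb downstream at chr18:5681884-5682351. This region is named because it coincides with the only SMAD2/3 peak near Zeb1. FOXL2 folds there were 12.4 and 9.14 in vehicle and 29.4 and 23.7 in activin, and ranks were 59.8 and 49.0 against 90.3 and 86.7. The SMAD2/3 peak was called in activin 1 (fold 5.58, place 5734 of 7784) and not in activin 2. An activin-only H3K27ac region with folds of 2.84 and 2.91 overlapped the same FOXL2 region. Its −log10 q was low in both lists, 1.87 in activin 1 and 1.58 in activin 2 (list percentiles 14.8 and 8.39). Wider gaps in FOXL2 rank lay at sites without a SMAD2/3 peak. Ranks 86.3 kb downstream were 7.78 and 15.1 in vehicle against 63.8 and 60.7 in activin. Those 14.6 kb downstream were 37.3 and 3.29 against 77.6 and 73.5. Both sites were named after their values were seen.

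At the start of Zeb1 derived from deposited distances, the H3K27ac region chr18:5592679-5593950 was present in all 4 libraries. Its folds were 3.93 and 3.85 in vehicle and 3.80 and 3.88 in activin. Its ranks of 25.7 and 33.2 against 30.2 and 29.6 were mixed. The start of Gm10125, a gene to which the deposited table gave part of these peaks, lies in the same region, so the acetylation of the 2 starts cannot be told apart. RefSeq places the Zeb1 start further upstream, at chr18:5591327. An H3K27ac region there, chr18:5591024-5591669, had peaks only in vehicle 2 (fold 2.69) and activin 1 (2.94). FOXL2 covered the derived start in vehicle 2 (fold 3.94) and activin 1 (4.93), and lay 0.128 kb from it in vehicle 1 (5.47). A FOXL2 region 0.829 kb upstream was activin-only, with folds of 4.66 and 8.07. A region 2.15 kb downstream was in all 4 libraries, with folds of 9.55, 6.95, 12.1 and 6.24 and mixed ranks, and one 6.24 kb downstream was in activin 1 alone (2.69).

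Zeb2, the other Zeb repressor, had no acetylation near its start: the nearest H3K27ac peak was 60.7 kb away in vehicle 1, 122 kb in vehicle 2, 71.9 kb in activin 1 and 122 kb in activin 2. FOXL2 peaks stood 0.210 kb from the start in vehicle 1 (fold 8.45), 0.235 kb in vehicle 2 (3.10) and 0.264 kb in activin 1 (4.37), and these include the 2 peaks that reach into the printed sequence. In activin 2 the nearest FOXL2 peak was 12.8 kb away. The FOXL2 region of the window with the highest mean percentile, 89.1 kb upstream at chr2:45205983-45207110, had folds of 30.8 and 19.5 in vehicle and 48.4 and 39.1 in activin. It ranked 92.8 and 85.7 in vehicle and 98.9 and 97.9 in activin, higher with no overlap.

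That upstream region also held the only SMAD2/3 region of both activin libraries near Zeb2, chr2:45206400-45206622, with folds of 11.6 and 7.17 and places 1106 of 7784 and 2665 of 5970. No H3K27ac peak of any library overlapped it. Inside Zeb2, 72.7 and 72.1 kb from the start, activin 2 (fold 4.26) and activin 1 (4.91) each had a SMAD2/3 peak that the other lacked, and the 2 did not overlap. The next FOXL2 region by mean percentile, 13.1 kb downstream, had folds of 29.1 and 24.4 in vehicle and 30.4 and 21.7 in activin and ranked slightly lower in activin (94.3 and 94.1 against 92.8 and 90.5). Of the 13 FOXL2 regions in all 4 libraries around Zeb2, 4 were higher, 6 lower and 3 mixed, beside 26.1% higher and 33.1% lower among all FOXL2 regions.

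Twist1 encodes a basic helix-loop-helix factor of mesoderm and EMT and had neither SMAD2/3 nor H3K27ac within 100 kb. The nearest H3K27ac peaks were 285, 285, 527 and 605 kb from the start in vehicle 1, vehicle 2, activin 1 and activin 2. Its single region by the rule was a FOXL2 site 26.0 kb downstream, chr12:33983499-33983793, with folds of 6.90 and 11.2 in vehicle and 8 and 5.87 in activin. Ranks of 17.1, 54.9, 26.4 and 10.9 overlapped between treatments. The SMAD2/3 peak nearest to the start and to the printed SMAD box was 676 kb away, in activin 1 and in activin 2.

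Cdh1 had FOXL2 peaks by the rule and no peaks of the other antibodies. The H3K27ac peak nearest to the start of Cdh1 was 74.3 kb away in all 4 libraries, and the nearest SMAD2/3 peak was 348 kb away (activin 2). Its FOXL2 region 3.72 kb upstream, chr8:106599493-106599829, was present in all 4 libraries with folds of 9.71 and 10.2 in vehicle and 9.59 and 8.01 in activin. It was the 1 region by the rule that ranked lower in both activin libraries (48.3 and 61.3 against 46.9 and 39.1), with the 2 nearest ranks almost equal. A region 19.9 kb downstream in an intron had folds of 8.82, 6.68 and 5.30 in vehicle 1, vehicle 2 and activin 2 and no peak in activin 1, and one 7.53 kb upstream was in activin 1 alone (3.63). The H3K27ac regions 74.7 to 80.0 kb downstream are assigned to Tango6, the neighbouring gene.

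Cdh2, with 37 of the 71 peaks, had the densest occupancy of the 9 genes. Its window held 42 FOXL2 regions (0.783% of RefSeq protein-coding genes had as many), 27 of them in all 4 libraries (0.286% had as many). It held 5 activin-only SMAD2/3 regions, where the median gene had 0 and 0.446% had as many. H3K27ac formed 17 regions, a number that 11.1% of genes reached. Windows of neighbouring genes overlap, so these shares are descriptions of position and were not tested.

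The start of Cdh2 was acetylated in all libraries and ranked higher after activin. The region over the start derived from deposited distances, chr18:16806689-16809118, had H3K27ac folds of 5.92 and 5.83 in vehicle and 7.59 and 6.77 in activin. Its ranks were 74.8 and 79.7 against 90.9 and 86.4. RefSeq places the start of Cdh2 at chr18:16809246, between this region and the next one upstream. The neighbouring region 1.51 kb upstream, chr18:16809446-16810506, had folds of 5.20 and 5.09 against 6.42 and 6.61 and ranks of 74.8 and 79.0 against 89.7 and 91.5. In both regions each activin value lay above each vehicle value. The wider window was not one-sided: of its 6 H3K27ac regions in all 4 libraries, 3 were higher and 3 lower. Among all H3K27ac regions of this kind 27.9% were higher and 30.4% lower. FOXL2 over the second region was weak and mixed, with folds of 3.91 and 5.43 in vehicle and 4.48 and 5.94 in activin, and 0.485 kb downstream of the start it was in vehicle 2 (4.52) and activin 2 (5.18) only.

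The SMAD2/3 region that the rule assigned to Cdh2 lies 30.8 kb downstream in an intron, chr18:16777528-16777834. It had a fold of 8.80 (−log10 q 20.7, place 1822 of 7784) in activin 1 and of 6.34 (11.7, place 2539 of 5970) in activin 2. FOXL2 covered it in all 4 libraries, with folds of 11.8 and 11.8 in vehicle and 13.5 and 14.1 in activin. Both activin folds were above both vehicle folds there, while the ranks of 62.9 and 71.4 against 70.0 and 75.3 overlapped. H3K27ac beside it was weak, with folds of 3.08 in vehicle 1, 3.61 in activin 1 and 2.63 in activin 2 and no peak in vehicle 2. FOXL2 sites 2.86 and 20.7 kb downstream, with no SMAD2/3, were in all 4 libraries at folds of 4.45 to 8.36 and mixed ranks.

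The SMAD2/3 region with the highest fold and place in the 9 windows lay on the other side of Cdh2, 15.7 kb upstream. The activin-only region chr18:16823986-16824399 had folds of 15.1 and 12.1 and stood at place 278 of 7784 in activin 1 and 647 of 5970 in activin 2. A second activin-only region 16.3 kb upstream had folds of 6.19 and 4.93. Both coincided with FOXL2 regions that were activin-only as well, with folds of 14.6 and 12.6 under the first and 12.5 and 11.5 under the second. H3K27ac over the pair (chr18:16823039-16825364) was again activin-only, with folds of 4.21 and 4.36. It is the only place in the 9 windows where all 3 antibodies had peaks in both activin libraries and in neither vehicle library. The deposited table assigned it to Gm15328, a long noncoding RNA, so it does not count under the annotation rule.

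**Figure D5:**
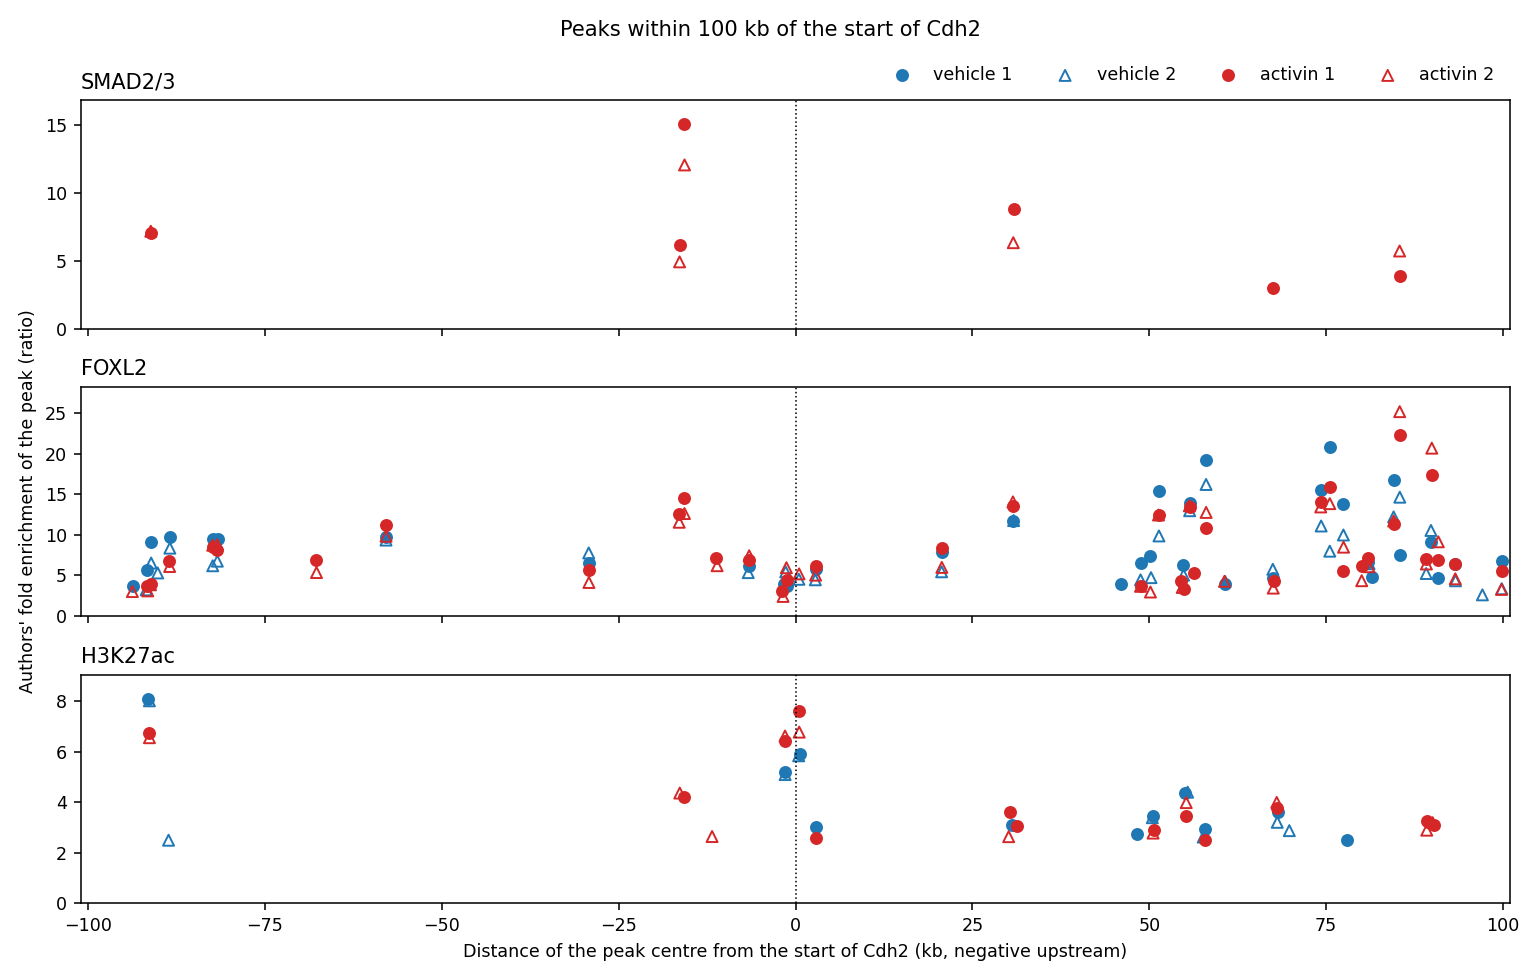
Authors' fold enrichment (y axis, linear ratio) of every peak within 100 kb of the start of Cdh2 (x axis, distance of the peak centre, kb) for the 3 antibodies, by library. All SMAD2/3 points are from activin libraries, and near 16 kb upstream red points alone are seen in all 3 panels, up to a SMAD2/3 fold of 15.1.

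The remaining SMAD2/3 sites around Cdh2 differed in what accompanied them. At 85.4 kb downstream, inside the gene, an activin-only SMAD2/3 region (folds 3.88 and 5.73) lay on a FOXL2 region with folds of 7.51 and 14.6 in vehicle and 22.3 and 25.2 in activin, ranked higher (50.8 and 80.4 against 88.6 and 93.9). No H3K27ac overlapped it. At 91.1 kb upstream, an activin-only SMAD2/3 region (7.02 and 7.18) lay on FOXL2 that ranked lower in activin, with folds of 9.06 and 6.52 in vehicle and 3.87 and 3.84 in activin and ranks of 63.8 and 59.4 against 16.5 and 17.6. The H3K27ac region there, chr18:16897348-16902526, had folds of 8.07 and 8 in vehicle and 6.72 and 6.55 in activin and also ranked lower (98.6 and 98.7 against 94.3 and 94.3). A further SMAD2/3 peak 67.5 kb downstream was in activin 1 only (fold 3.01, place 7594 of 7784).

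The 2 FOXL2 regions around Cdh2 with the highest mean percentile, 55.7 and 51.3 kb downstream, had mixed ranks and no SMAD2/3. Among all 27 FOXL2 regions in all 4 libraries, 3 were higher, 9 lower and 15 mixed (26.1% higher and 33.1% lower among all FOXL2 regions). The higher ones lay 85.4 kb downstream, as given above, 6.59 kb upstream, with folds of 6.21 and 5.34 in vehicle and 6.93 and 7.42 in activin, and 89.9 kb downstream. The one 89.9 kb downstream had FOXL2 folds of 9.07 and 10.5 in vehicle and 17.3 and 20.7 in activin. It overlapped an activin-only H3K27ac region with folds of 3.08 and 3.19, next to another with 3.26 and 2.89, and no SMAD2/3 peak. The second acetylated region was weak in activin 2 (−log10 q 1.65, list percentile 9.83). This FOXL2 region was named after its values were seen.

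Over the set, 7 of the 8 SMAD2/3 regions of both activin libraries in the windows overlapped FOXL2 of both activin libraries (87.5%, against 82% of all 5162), and 6 overlapped H3K27ac (75%, against 76.7%). The 1 region by the rule, at Cdh2, counted as overlapping both. Its overlap with H3K27ac is one of regions merged over libraries: in neither activin library did an H3K27ac peak overlap the SMAD2/3 peak of that library. The exception for FOXL2 was the first region near Snai1, and the exceptions for H3K27ac were those upstream of Zeb2 and 85.4 kb into Cdh2. These shares are near the shares of all SMAD2/3 regions.

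Vim and Tgfbi, the structural and matrix genes, had no acetylation at their starts and no SMAD2/3 peak within 100 kb. The only H3K27ac region in the Vim window, 29.7 kb upstream at the start of Trdmt1, had folds of 4.28 and 3.60 in vehicle and 3.13 and 3.93 in activin, with overlapping ranks. FOXL2 near Vim was limited to 2 peaks of activin 1, 61.5 and 31.3 kb upstream (folds 7.94 and 3.72). Tgfbi had by the rule a single FOXL2 region 38.8 kb downstream, chr13:56648226-56648575, with folds of 6.09 and 6.70 in vehicle and 5.82 and 10.1 in activin and overlapping ranks of 11.1, 23.4, 10.6 and 41.7. The FOXL2 region of the Tgfbi window with the highest mean percentile, 80.4 kb upstream at chr13:56528984-56529377, ranked lower in activin. Its ranks were 67.8 and 66.7 in vehicle and 30.5 and 36.6 in activin, with no overlap. The SMAD2/3 peak nearest to the start of Tgfbi, and to the 2 printed SMAD boxes, was 132 kb away (activin 2). At the far end of its window, 93.1 kb downstream, the start of Smad5, a SMAD of the bone morphogenetic protein branch, had H3K27ac folds of 6.50 and 6.46 in vehicle and 9.78 and 7.63 in activin and ranked higher (66.2 and 71.7 against 92.1 and 84.0).

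Acetylation at the start, a peak within 500 bp in all 4 libraries, was found for 3 of the 9 genes: Snai2, Zeb1 and Cdh2. For Zeb1 this holds at the derived start, while the region at its RefSeq start had peaks in vehicle 2 and activin 1 only. Among all 26380 genes with a start derived from the deposited distances the share was 29.9%. It was 43.8% among the protein-coding ones and 40.9% among RefSeq protein-coding genes. The share in the set, whose genes all code for proteins, lay above the first of these references and below both protein-coding ones. The difference was not tested. As a check of the cell type, 5 of 6 genes listed for the gonadotrope (Cga, Lhb, Gnrhr, Nr5a1 and Pitx1) had an acetylated start in all 4 libraries and Fshb had none. Not all of these genes are exclusive to that cell. No start was acetylated in all 4 libraries among 5 other pituitary, 2 fibroblast, 2 immune and 3 folliculostellate or stem-like markers, and 1 of 4 endothelial markers was (Cdh5).

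Related genes from 4 lists, 47 in all, were counted by the same annotation rule. The deposited tables annotated a peak of some library within 100 kb to 31 of them, and 8 of these had an activin-only SMAD2/3 region (25.8%). Among all 28143 genes annotated in that way the share was 10.7%, and among the protein-coding ones 10.4%. Among 7 other EMT transcription factors, 4 of them annotated, these were Snai3 (7.21 kb downstream, folds 10.8 and 5.71) and Tcf3 (2 regions, the stronger 13.8 kb upstream of its start with folds of 8.14 and 6.41). Among 17 epithelial genes, 13 of them annotated, they were Ctnnd1, which encodes p120 catenin (folds 7.47 and 8.38), the tight junction genes Tjp1 (13.4 and 10.0) and Cldn4 (3.57 and 3.33), and the adhesion gene Epcam (4.07 and 4.33). Among 12 mesenchymal and matrix genes, 7 of them annotated, they were Sparc, a matrix glycoprotein (7.62 and 6.48), and the matrix metalloproteinase Mmp2 (9.05 and 7.08). Of 11 other TGF-β and SMAD target genes, 7 were annotated and 0 had such a region. Among them Smad7, an inhibitor of the pathway, had 1 SMAD2/3 peak in activin 1 alone, and Skil, a SMAD corepressor, had 1 in activin 2 alone. Of the 8 genes with an activin-only region, 6 remained when presence required −log10 q of at least 5. The regions of Cldn4 and Epcam stood low in their lists (mean percentiles 13.4 and 15.1). The lists were chosen with earlier results known, and none was tested.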

How the data were processed

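ChIP-seq of SMAD2/3, FLAG-FOXL2 and H3K27ac was analysed from the peak list and the annotation table of each of 12 libraries (2 per treatment for each of 3 antibodies). Reads were single-end, 50 bp, per the labels, which name no batch. The submitters' processing notes name Bowtie2, MACS2 and HOMER and the builds GRCm38 and mm10. Their versions and settings, and the use of the control, are not given in the sources used here. The deposited lists were called per library. They give each peak a score (10 × −log10 q without its decimals), a fold enrichment (a linear ratio), and the −log10 of p and q. The smallest −log10 q in the authors' lists was 1.30 to 1.78 for SMAD2/3 and FOXL2 and 1.00 to 1.01 for H3K27ac. The distance in bp to the nearest start comes from annotatePeaks, per the file headers. Fold and −log10 q belong to a peak and its own list, and differences of folds between lists were not tested.

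Sites were compared in Python 3.11.15 with pandas 2.3.3 and scipy 1.17.1. Starts of Snai1, Zeb2 and Vim came from RefSeq GRCm38.p6, the others from peak centres and deposited distances. Peaks sharing at least 1 bp were merged. Peak counts were compared with an exact permutation test over 6 labellings, whose smallest p is 0.333. Merging and counting were tested on simulated data. Named regions were, for each gene, every SMAD2/3 region and the FOXL2 and H3K27ac regions at the start, under SMAD2/3, or among the 2 highest by mean rank. Not every region among the 2 highest is described, for example a vehicle-only H3K27ac region 94.8 kb downstream of the Zeb1 start. Further regions were named after their values were seen. The genes and lists were chosen with earlier results of these data known. Peak sequences were not used here, and 1 gene of a list is not reported here. Coordinates count from 1.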

Additional observations from a re-analysis of the deposited data

How the results depend on the processing

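Of 120 alternative values, 28 counts moved by over 1.5 times, from 0 or to 0, and 2 differences reversed. Differences were marked only where they reversed, so the other 90 values include differences that changed in size. An alternative limit of 50 kb could not alter the counts of the 9 genes. Their farthest peak lay 38.8 kb from its start. The treatment difference of SMAD2/3 peaks per library stayed at 1 and that of FOXL2 at 0 with a replicate block, and that of H3K27ac at 0.5 (exact sign-flip p = 0.5, 1 and 1, the smallest possible being 0.5). The samples share only a number: correlations of same-numbered deviations were -0.01 for SMAD2/3, 0.16 for FOXL2 and -0.04 for H3K27ac. Leaving out 1 library gave H3K27ac differences of -1 to 2, reversed without activin replicate 1 (-1) and without vehicle replicate 2 (-0.5), and FOXL2 differences of -1 to 1. With lists cut to the length of the shortest, the activin-only SMAD2/3 region at Cdh2 was lost (0), the SMAD2/3 difference fell to 0 and the FOXL2 difference was -2 (exact p = 0.333). The SMAD2/3 outcome was fixed beforehand, because the shortest list held 144 peaks and the Cdh2 peaks stood at places 1822 and 2539. The FOXL2 difference was -0.5 at −log10 q of at least 5 and 11.5 over all peaks within 100 kb. Leaving out 1 library gave 0 to 2 activin-only and 0 to 1 vehicle-only FOXL2 regions, 0 to 1 activin-only H3K27ac regions, 1 to 3 FOXL2 regions ranked higher and 2 to 4 H3K27ac regions ranked higher. Requiring 50% of the shorter peak to be shared gave 1 activin-only FOXL2 region, and ranking within whole lists gave 1 FOXL2 region ranked higher. The overlap of the Cdh2 SMAD2/3 region with H3K27ac fell to 0 when 50% of it had to be covered, when −log10 q had to reach 5, or against the vehicle libraries. Acetylated starts fell from 3 to 1, that of Cdh2, when a peak had to cover the start or −log10 q had to reach 5. The covered Cdh2 start is the derived one, and no H3K27ac region covered the RefSeq one. Counting every region within 100 kb, chosen after seeing the data, gave 8 activin-only SMAD2/3 regions (7 on FOXL2, 6 on H3K27ac), 11 activin-only, 2 vehicle-only and 17 higher FOXL2 regions, and 5 activin-only, 1 vehicle-only and 10 higher H3K27ac regions. In each case the cause was not tested. The number of peaks called in each list limits every count of presence, and absence from a list is not absence of binding.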
